A study of Mus musculus with 12 samples.

Results

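Homeobox genes that mark brain regions were examined in hippocampal RNA of naturally aged male C57BL/6J wild-type mice. The members were all genes of the deposited table whose symbol begins with Lhx, Dlx, Otx, Nkx, Irx, Emx, Meis, Pbx, Pou or Gbx followed by a digit, and the relatives of Six3 with the same stem. Of 75 such symbols, 1 LIM homeobox gene and 4 symbols ending in "os" were left out by the rule and 2 (Irx4 and Nkx2-4) were at 0 in all libraries, which left 68 members of 27833 genes in the table. The name of the set fits its pattern rather than every gene in it, since 7 members are not homeobox proteins (Dlx6os1, Dlx6os2, Six3os1, Otx2os1, Pou2af1, Pou2af2 and Pou2af3). The mice were 20 months old and received normal saline (CON, n = 3), 5 mg/kg/day of pyrroloquinoline quinone (PQQ-L, n = 5) or 10 mg/kg/day (PQQ-H, n = 4) by oral gavage for 14 days. PQQ is a redox-active quinone sold as a dietary supplement. All groups shared the strain, sex, age and gavage, no young group was among these libraries, and 6 mice had been assigned to each group. Each library was treated as 1 mouse, and if any shared an animal, the p-values below would measure technical spread only. Expression is given as FPKM, the fragments on a gene divided by its length and by the library total. Between 29654553 and 38179496 reads per library lay on genes.

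Homeobox genes encode transcription factors that bind DNA through a homeodomain. In the embryo their domains of expression divide the forebrain into pallium (cortex and hippocampus), subpallium (striatum, septum and the sources of interneurons), thalamus, hypothalamus and the choroid plexus, the epithelium that secretes cerebrospinal fluid. Many of these genes stay on in the adult cells of the same regions, so that in a piece of dissected tissue they report which cells are present as well as how those cells regulate their genes. In bulk RNA, fewer cells of a type and less RNA per cell cannot be told apart.

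The libraries differed in their content of neighbouring tissue, as read from marker lists. The summed FPKM of 12 striatal markers (Drd1, Drd2, Adora2a and others) was 2946 in CON 1, 1205 in CON 3, 2232 in PQQ-H 1 and 1099 in PQQ-H 2, against 39.1 to 161 in the other 8 libraries. In those 4 libraries, the 6 dentate granule markers summed to 6.54 to 18.4, below the 36.2 to 130 of the other 8. The 15 choroid plexus markers (Ttr and others) summed to 1560 to 5489 in the 3 CON libraries, 52.15 to 126 in PQQ-L and 21.95 to 36.5 in PQQ-H. The 7 thalamic markers were highest in CON 1 (143.7) and CON 2 (89.8) and lay between 13.6 and 39.1 elsewhere. Markers of hippocampal pyramidal neurons were present in every library, from 76.9 in CON 1 to 398 in PQQ-H 3. Results that rest on the 4 libraries rich in striatal markers are therefore given with and without them. These 4 were picked by marker level after the data were seen and are not a group of the study.

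Regulatory sequence is shown for Otx2, the member called lower, and for Six3 and Lhx9, the members with the largest SD of log2(FPKM + 0.1) over the libraries. Each line gives 60 bases upstream of a RefSeq transcript start on GRCm38.p6, read 5′ to 3′ on the strand of the gene, and none of these windows lies in an exon of its own gene. Capitals mark TAATTA, the core bound by many homeodomains, in Otx2, and TGACAG, the core bound by Meis proteins, in Six3 and Lhx9.
Otx2, chr14:48667753-48667812, minus strand, core at 141 to 136 bases before the start: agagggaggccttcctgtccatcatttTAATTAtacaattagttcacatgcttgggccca
Six3, chr17:85620668-85620727, plus strand, core at 139 to 134 bases before the start: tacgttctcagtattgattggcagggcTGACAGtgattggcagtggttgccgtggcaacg
Lhx9, chr1:138842537-138842596, minus strand, core at 125 to 120 bases before the start: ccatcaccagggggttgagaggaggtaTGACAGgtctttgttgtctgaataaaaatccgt

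In the 250 bases before annotated starts, searched on both strands, TAATTA was found in 4 of 58 windows of members and in 4.84% of 32851 windows of all genes. These 4 windows belong to Otx2 and Dlx6os1, which have several starts each, and 46 of the 68 members had a window. TGACAG was found in 9 of the 58 windows and in 15.9% of all windows. TAATCC, the core bound by Otx proteins, was found in 2 of 58 windows and in 6.25% of all. A match describes the letters of the window and not a site in use.

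The levels of the members covered the whole range from a handful of reads to well-expressed genes. Of the 68 members, 8 had a mean of at least 10 FPKM over the 12 libraries, 15 a mean of 1 to 10, 6 of 0.5 to 1, 14 of 0.1 to 0.5 and 25 of less than 0.1. Among the highest were Pou3f1 (mean 23.7 FPKM) and Pou3f3 (23.1), POU factors of cortical and hippocampal neurons, followed by Pou6f1 (19.8), Meis2 (19.3), Pbx2 (19.1), Lhx2 (14.5) and Nkx6-2 (10.8). Across libraries Pou3f3 ran from 17.7 to 27.4 FPKM, Pou6f1 from 15.7 to 24.0 and Pbx2 from 16.7 to 24.4, so the order among these leading genes is not fixed within their spread. At the low end, 38 members were above 0 in all 12 libraries and 5 in 1 library only (Pou4f3, Six6, Pou5f2, Nkx1-2 and Nkx2-3). The 29 members with a mean of at least 0.5 FPKM were tested and the 39 below are described by their values.

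The tested members varied more between libraries than genes in general. The SD of log2(FPKM + 0.1) over the 12 libraries had a median of 0.47 for the 29 members and 0.23 for the 13796 genes tested. The highest value fell in CON 1 for 12 of the 29 members, and 18.7% of all tested genes had their highest value there. The lowest value fell in PQQ-H 3 for 8 members and in CON 1 for 7.

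**Figure D1:**
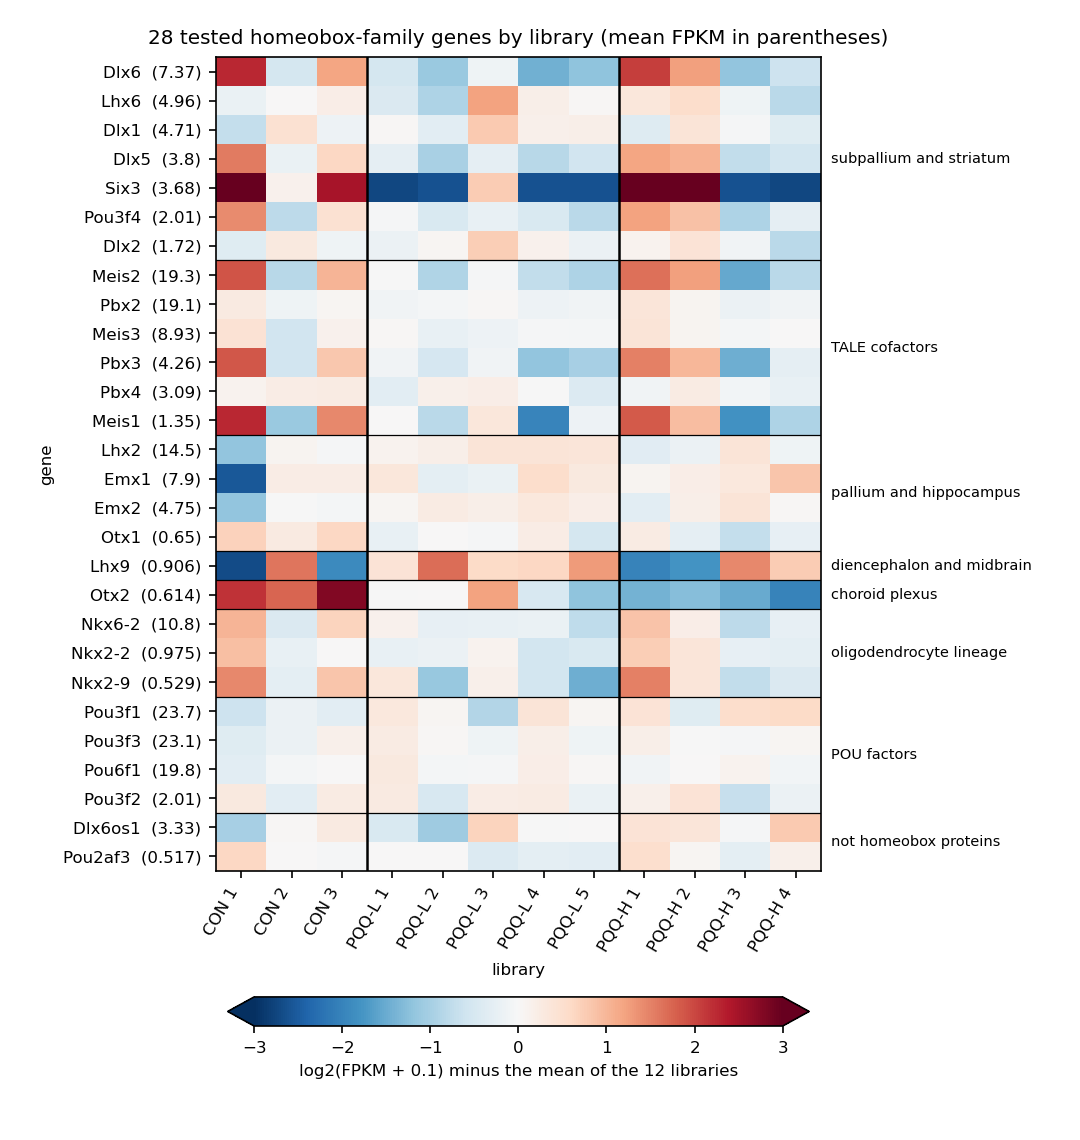
Level of 28 of the 29 tested members (rows, grouped by the region or cell type they are known for, with the mean FPKM beside the symbol) in the 12 libraries (columns, CON, PQQ-L and PQQ-H separated by black lines). Colour is log2(FPKM + 0.1) minus the mean of the row, cut at 3 in either direction. CON 1, CON 3, PQQ-H 1 and PQQ-H 2 are high together for Six3, Dlx5, Dlx6, Meis1, Meis2 and Pbx3 and low for Lhx9, and Otx2 is high in the 3 CON libraries.

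Against CON, no member was called in PQQ-L and 1 member, Otx2, was called lower in PQQ-H. A gene was called where its absolute log2FC exceeded 1 and its limma p, adjusted over all 13796 genes by the Benjamini-Hochberg method, was under 0.05, and all fold changes are on the scale of log2(FPKM + 0.1). Called genes were 0.471% of all those tested for PQQ-L, and for PQQ-H they were 0.819%, and every called gene was lower than in CON. At an unadjusted p below 0.05 there were 7 members in PQQ-L vs. CON, among 20.5% of all genes. Of these, Dlx5, Dlx6, Otx1, Otx2 and Six3 were lower and Emx2 and Lhx2 higher. In PQQ-H vs. CON these were Otx1 and Otx2, 2 of 29 members among 9.73% of all genes. The libraries did not overlap between PQQ-L and CON for 5 members (Dlx5, Emx2, Lhx2, Otx1 and Otx2), among 10.6% of all genes. For PQQ-H and CON this held for Otx1 and Otx2, among 7.08% of all genes. In PQQ-L, 17 of the 29 members had a log2FC below 0 (53.9% of all genes), and in PQQ-H 19 did (55.6%). Their median was -0.15 for PQQ-L and -0.10 for PQQ-H, beside -0.03 for all genes in each comparison. The comparisons share the CON libraries. A log2FC below -1 was found for 8 members in PQQ-L (2.99% of all genes) and 2 in PQQ-H (2.51%). The 8 were Otx2, Six3, Dlx5, Dlx6, Meis1, Meis2, Pbx3 and Nkx2-9. Without the 4 libraries rich in striatal markers, CON 2 was the lone CON library. The PQQ-L values were then -1.83 for Otx2 and -2.10 for Six3. Those of Dlx5, Dlx6, Pbx3 and Nkx2-9 were -0.38, -0.34, -0.01 and -0.25, and Meis1 and Meis2 stood at 0.59 and 0.31.

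**Figure D2:**
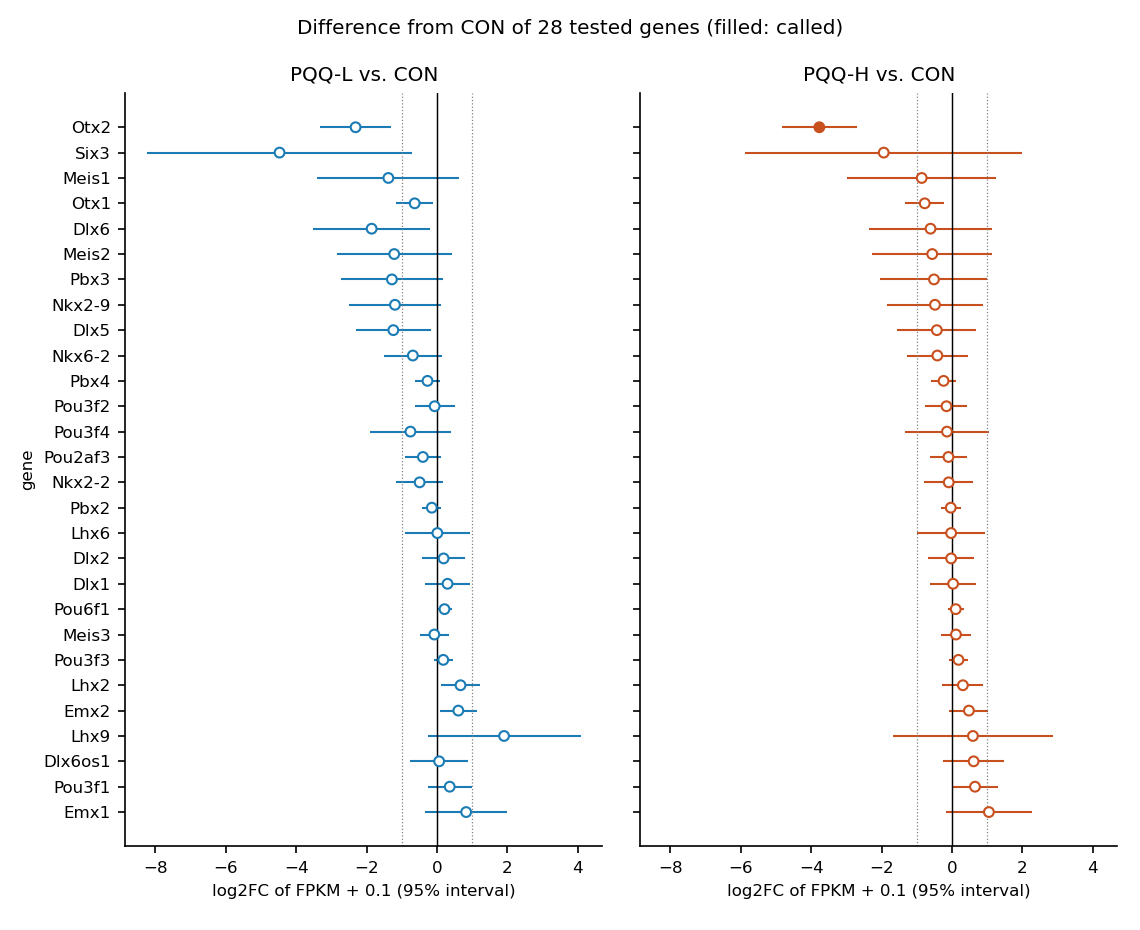
Difference from CON of 28 of the 29 tested members in PQQ-L (left) and PQQ-H (right), as the limma log2FC of FPKM + 0.1 (points) with its 95% interval (lines). The filled point is the called gene, Otx2 in PQQ-H at -3.77, and dotted lines mark 1 and -1. In each panel the widest interval is that of Six3, from -8.24 to -0.71 in PQQ-L and from -5.88 to 1.999 in PQQ-H.

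Otx2, the called member, encodes a bicoid-type homeodomain factor that is needed for the choroid plexus and remains on in its epithelium. Its FPKM was 1.68, 1.23 and 2.62 in the CON libraries, 0.299, 0.305, 0.827, 0.185 and 0.0723 in PQQ-L, and 0.0501, 0.0653, 0.0400 and 0 in PQQ-H. Every CON library lay above every PQQ-L library, and every PQQ-L library above every PQQ-H library. The reads behind these values were 207 to 497 in CON, 14 to 168 in PQQ-L and 0 to 12 in PQQ-H, so the PQQ-H values rest on few reads. The group means were 1.84 ± 0.707 FPKM (SD, n = 3), 0.338 ± 0.290 (n = 5) and 0.0389 ± 0.0279 (n = 4). Otx2 thus passed the filter of 0.5 FPKM, with a mean of 0.614, only through CON, and a gene that enters so is likely to be lower elsewhere. With no filter it was also called lower in PQQ-H. Otx2 fell by 3.77 on the log2 scale in PQQ-H (SE 0.49, 95% interval -4.83 to -2.70, limma adjusted p = 0.00295), which is 13.6-fold on that scale. In PQQ-L the log2FC was -2.31 (SE 0.46), with a limma adjusted p of 0.0541 that missed the threshold. PQQ-H lay below PQQ-L by a log2FC of -1.46 (SE 0.43, limma adjusted p = 0.580).

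Most choroid plexus markers moved with Otx2. All 14 tested markers of the list were lower in both comparisons and 12 of the 14 were called in each. Most of these markers passed the filter only through CON (Kcne2, Folr1, Aqp1, Prlr, Slc4a5, Kcnj13, Wfdc2, F5 and Steap1). Genes that enter so are likely to be lower elsewhere, so the filter favoured the direction of most of the list. Kl and Prlr did not follow Otx2 by library. Both were lowest in CON 1 (0.750 and 0.0342 FPKM), and Kl reached 13.95 FPKM in PQQ-H 4. The median marker stood at a log2FC of -3.44 for PQQ-L, and for PQQ-H it stood at -4.45. The summed level of the markers separated CON from both treated groups without overlap, so that choroid plexus content and treatment cannot be told apart for Otx2. With the marker level as a covariate the log2FC of Otx2 in PQQ-H was 0.60 (limma adjusted p = 0.999973), and 0 of 13796 genes were called. Within PQQ-L, Otx2 was highest in PQQ-L 3 (0.827 FPKM), where the choroid plexus sum was 109. PQQ-L 4 had the higher sum of 126 and 0.185 FPKM of Otx2. Most of each sum was Ttr, at 95.1 FPKM in PQQ-L 3 and 113 in PQQ-L 4. By the mean log2 level of the markers, PQQ-L 3 was instead the highest treated library. Ttr, Kl, Sostdc1, Tmem72, Calml4 and Wfdc2 were lower in PQQ-L 3 than in PQQ-L 4, and the other markers of the list were higher. Without the 4 libraries rich in striatal markers, which left CON 2 as the lone CON library with its spread taken from the other groups, the log2FC in PQQ-H was -3.49 and was not called (limma adjusted p = 0.289). Otx2os1, the antisense neighbour that shares 154 exon bases with Otx2, had at most 10 reads in any library.

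Otx1, the paralog of Otx2 that is known from deep cortical layers, was singled out after its values were seen. Its FPKM was 1.07, 0.762 and 1.001 in CON, 0.520, 0.624, 0.604, 0.739 and 0.399 in PQQ-L, and 0.753, 0.495, 0.338 and 0.504 in PQQ-H. The lowest CON library stood just above the highest library of each treated group. The log2FC was -0.63 (SE 0.24) in PQQ-L and -0.77 (SE 0.25) in PQQ-H, with limma adjusted p of 0.229 and 0.282, so neither passed.

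**Figure D3:**
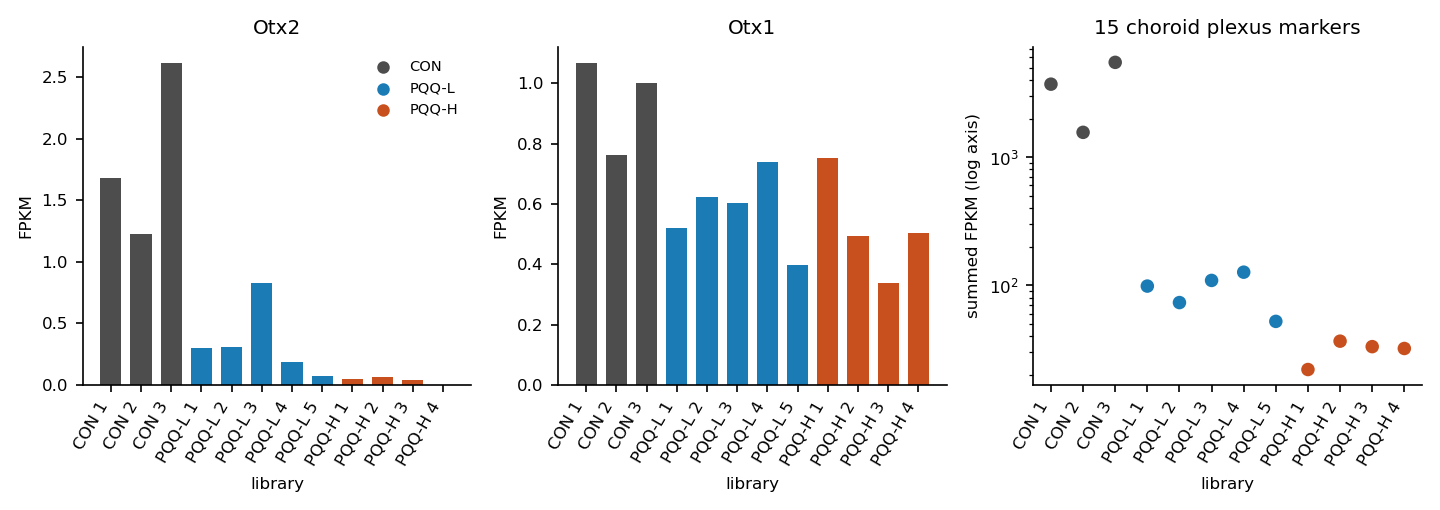
FPKM of Otx2 (left) and Otx1 (middle) in each library, and the summed FPKM of 15 choroid plexus markers on a log axis (right). Colours mark CON, PQQ-L and PQQ-H. The 3 CON libraries are the highest in each panel, and the marker sum is 1560 or more in CON and 126 or less in the treated libraries.

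The genes of the subpallium and striatum differed widely between libraries of the same group. The 9 members known from these regions include Dlx1, Dlx2, Dlx5 and Dlx6, distal-less factors that specify GABA neurons, and Six3, a factor needed for striatopallidal neurons. Lhx6 and Nkx2-1 mark interneurons of the medial ganglionic eminence, and Pou3f4 and Gbx1 also belong here. Of the 9, 7 were tested and none was called in either comparison.

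Six3 had the largest SD of log2(FPKM + 0.1) over the libraries of all tested members. Its FPKM was 20.0, 0.623 and 3.55 in CON, 0, 0.00692, 1.02, 0.00751 and 0.00774 in PQQ-L, and 11.8, 7.10, 0.00750 and 0 in PQQ-H. Its 4 highest values were those of the libraries rich in striatal markers, and 6 libraries had 0 or 1 read. The reads in the others ran from 70 in CON 2 and 138 in PQQ-L 3 to 2686 in CON 1. The log2FC was -4.47 (SE 1.72) in PQQ-L and -1.94 (SE 1.80) in PQQ-H, with limma adjusted p of 0.232 and 0.787. Without the 4 libraries rich in striatal markers these values were -2.10 and -2.80 (limma adjusted p = 0.978 and 0.521), and with striatal marker level as a covariate they were -1.45 and -0.90 (limma adjusted p = 0.771 and 0.714).

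Dlx5 and Dlx6, neighbours on chromosome 6, followed the same libraries. Dlx6 had 23.5, 3.27 and 11.1 FPKM in CON, 3.30, 2.18, 4.41, 1.70 and 2.02 in PQQ-L, and 20.5, 11.3, 2.04 and 3.06 in PQQ-H. Dlx5 ran from 2.73 to 9.48 FPKM in CON, from 1.57 to 2.62 in PQQ-L and from 1.86 to 7.29 in PQQ-H. For both genes the 4 libraries rich in striatal markers were the 4 highest, and for Dlx5 the lowest CON library (2.73) stood just above the highest PQQ-L library (2.62). In PQQ-L vs. CON the log2FC was -1.24 (SE 0.49) for Dlx5 and -1.86 (SE 0.76) for Dlx6, with limma adjusted p of 0.233 and 0.235. Without the 4 libraries these values were -0.38 and -0.34, both with a limma adjusted p of 0.978. Leaving out CON 2 instead, the CON library with few striatal markers, gave -1.67 and -2.61 with limma adjusted p of 0.0435 and 0.0392, so that both were called. That setting called 866 of all 13796 genes, beside 65 with all libraries.

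Dlx1, Dlx2 and Lhx6, which remain on in adult interneurons, did not have their 4 highest values in these libraries. Dlx1 had 2.73, 6.26 and 4.04 FPKM in CON, 4.60, 3.63, 7.93, 5.02 and 5.09 in PQQ-L, and 3.43, 5.92, 4.39 and 3.51 in PQQ-H. Lhx6 ran from 3.97 to 5.29 FPKM in CON, from 2.38 to 10.7 in PQQ-L and from 2.56 to 6.68 in PQQ-H. All 3 genes were highest in PQQ-L 3, and their groups overlapped throughout. The 8 GABA interneuron markers had their 4 highest sums in the libraries rich in striatal markers (603.5 to 848.7 summed FPKM, 420.1 to 583.4 in the other 8). Single markers of that list differed. Gad1, Gad2, Pvalb, Npy and Lamp5 peaked in CON 1 or PQQ-H 1. Sst (315 FPKM), Vip (21.1) and Reln (7.98) peaked in PQQ-L 3, as did Dlx1, Dlx2 and Lhx6. The log2FC of Lhx6 was 0.01 (95% interval -0.91 to 0.93) in PQQ-L and -0.02 (-0.98 to 0.94) in PQQ-H, so changes of almost 1 in either direction are not excluded by the interval.

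The TALE cofactors, the Meis and Pbx proteins that bind DNA together with other homeodomain factors, differed in how far they varied between libraries. All 7 were tested and none was called. Meis2, a marker of striatal neurons in the adult, had 52.9, 7.91 and 28.9 FPKM in CON, 14.1, 7.57, 13.9, 8.45 and 7.35 in PQQ-L, and 44.8, 33.4, 4.82 and 7.99 in PQQ-H. Pbx3 had 5.73 to 12.2 FPKM in the 4 libraries rich in striatal markers and 1.11 to 3.02 in the other 8, and Meis1 had 1.70 to 4.47 against 0.140 to 1.11. For each of the 3 genes these 4 libraries were the 4 highest. The log2FC of Meis2 in PQQ-L vs. CON was -1.22 (SE 0.75, limma adjusted p = 0.307), and without the 4 libraries it was 0.31 (limma adjusted p = 0.978). Pbx3 went from -1.28 to -0.01 in the same way.

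Pbx2 and Pbx4 had narrower ranges than Meis1, Meis2 and Pbx3. Pbx4 had 3.27, 3.59 and 3.65 FPKM in CON, 2.26 to 3.53 in PQQ-L and 2.59 to 3.62 in PQQ-H. Pbx2 differed 1.46-fold between its highest and lowest library, and both ends, PQQ-H 1 and PQQ-H 3, belonged to the same group, although its 4 highest values were also in the libraries rich in striatal markers.

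Across all members, 11 of the 29 tested had their 4 highest values in CON 1, CON 3, PQQ-H 1 and PQQ-H 2, among 10.7% of all tested genes. These were Dlx5, Dlx6, Six3, Pou3f4, Meis1, Meis2, Meis3, Pbx2, Pbx3, Nkx2-9 and Nkx6-2. Six3 and Nkx2-9 passed the filter of 0.5 FPKM only through these 4 libraries, and a gene that enters so is likely to be highest in them. A further 4 members under the filter shared the pattern. Nkx2-1 had 0.576 to 1.74 FPKM in the 4 libraries and 0.0232 to 0.211 in the other 8, and Gbx1 0.123 to 0.776 against 0 to 0.0979. Six3os1 and Dlx6os2 were the others. Markers of basal forebrain cholinergic neurons (10.9 to 33.6 summed FPKM in the 4 libraries, 0.168 to 5.58 in the other 8) and of oligodendrocytes (1673 to 2624 against 896 to 1581) were highest in the same 4. The part of each tissue in the values of single members was not tested.

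Lhx9 showed the opposite pattern and was the lone tested member with its 4 lowest values in these libraries, among 14.3% of all tested genes. It encodes a LIM homeodomain factor known from the developing pallium and thalamus. Its FPKM was 0.00286, 1.89 and 0.0758 in CON, 0.776, 2.01, 0.871, 0.915 and 1.49 in PQQ-L, and 0.0636, 0.0909, 1.69 and 1.01 in PQQ-H. The 4 low libraries held 1 to 29 reads and the other 8 held 275 to 756. Lhx9 thus passed the filter of 0.5 FPKM only through the other 8. The log2FC was 1.91 (SE 0.99) in PQQ-L and 0.60 (SE 1.04) in PQQ-H, with limma adjusted p of 0.261 and 0.879. Leaving out CON 2 raised the PQQ-L value to 3.20, which was called (limma adjusted p = 0.0331) among 866 of all 13796 genes. Leaving out the 4 libraries gave -0.68 (limma adjusted p = 0.978), so the direction depended on which libraries entered.

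**Figure D4:**
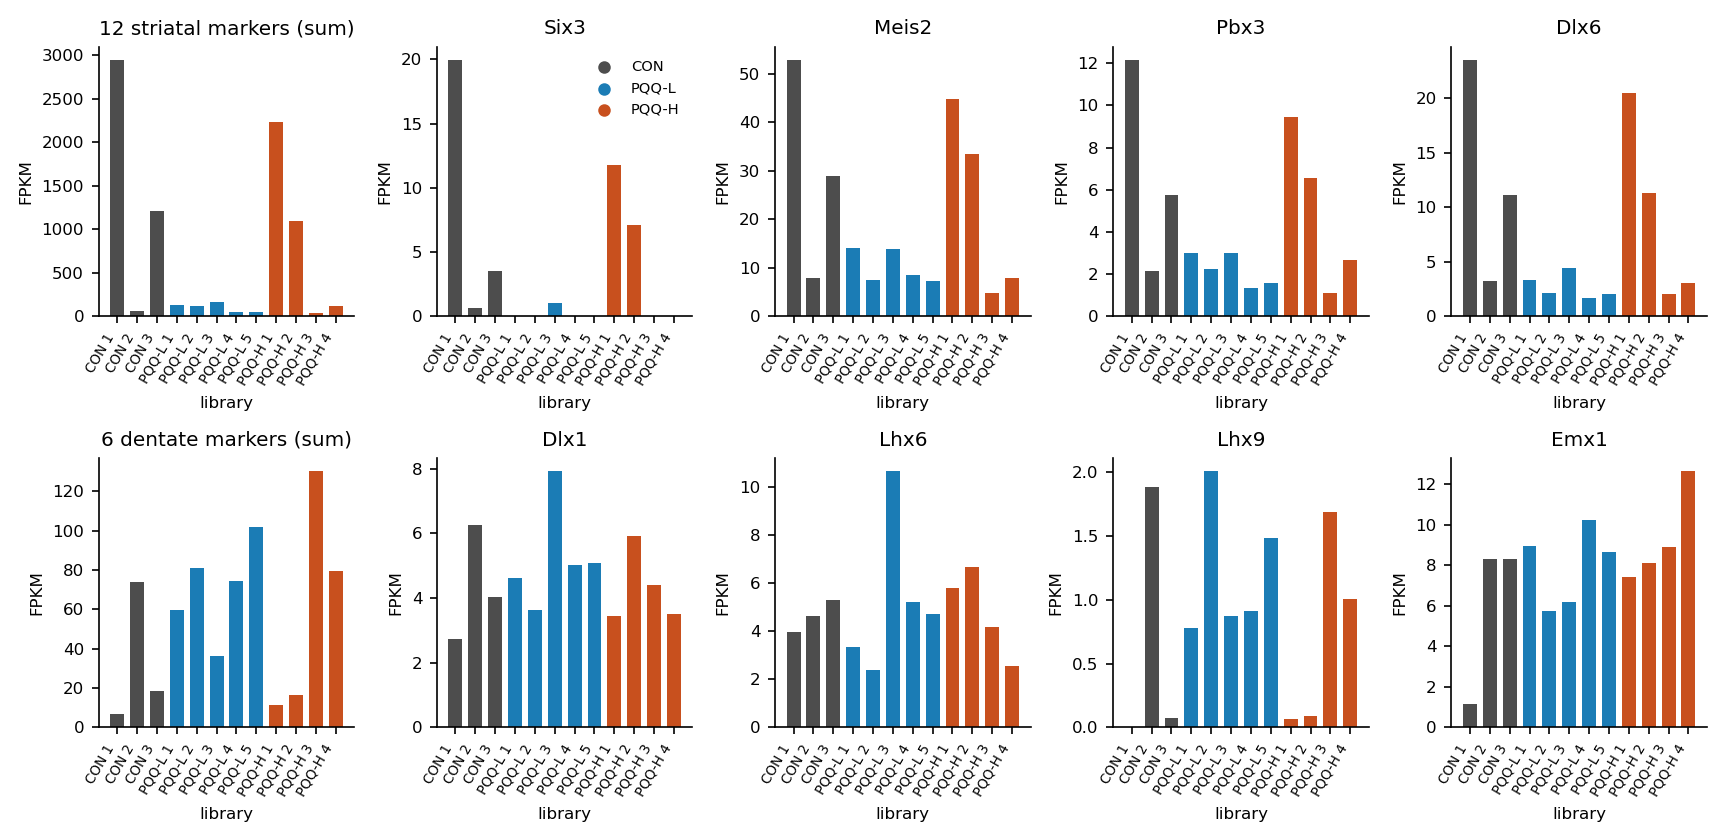
FPKM per library of 8 members, with the summed FPKM of 12 striatal markers (top left) and 6 dentate granule markers (bottom left). Colours mark CON, PQQ-L and PQQ-H. Six3, Meis2, Pbx3 and Dlx6 are highest and Lhx9 lowest in CON 1, CON 3, PQQ-H 1 and PQQ-H 2, while Dlx1 and Lhx6 peak in PQQ-L 3 and Emx1 is low in CON 1 alone.

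Among genes of the pallium and hippocampus, Emx1, Emx2 and Lhx2 were lowest in CON 1. Emx1 and Emx2, empty-spiracles factors of the dorsal telencephalon, and Lhx2, the LIM factor required to form the hippocampus, were tested together with Otx1, and Lhx5 was under the filter. Emx1 had 1.13, 8.34 and 8.32 FPKM in CON, 8.98, 5.76, 6.19, 10.2 and 8.67 in PQQ-L, and 7.44, 8.11, 8.91 and 12.7 in PQQ-H. CON 1 stood far below the other 11 libraries, which overlapped between groups. Lhx2 had 6.07, 14.7 and 13.6 FPKM in CON, 15.1, 15.8, 18.3, 18.4 and 17.9 in PQQ-L, and 10.97, 12.2, 18.2 and 12.7 in PQQ-H. Every PQQ-L library lay above every CON library for Lhx2, and the same held for Emx2 (CON 1.98 to 4.54, PQQ-L 4.76 to 5.72). The log2FC in PQQ-L vs. CON was 0.67 (SE 0.26) for Lhx2 and 0.61 (SE 0.24) for Emx2, with limma adjusted p of 0.230 and 0.234. Without CON 1 these were 0.27 and 0.23 (both with a limma adjusted p of 0.863), and without CON 2 they were 0.90 and 0.80 (limma adjusted p = 0.0397 and 0.0479), under the fold needed for a call. For Emx1, leaving out CON 1 moved the log2FC in PQQ-H from 1.05 to 0.12.

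Of the 3 factors of the oligodendrocyte lineage, Nkx6-2 and Nkx2-9 were highest in the libraries with the most oligodendrocyte markers, and Nkx2-2 was not highest in all 4 of them. Nkx2-2 and Nkx6-2 act in oligodendrocyte development, and Nkx2-9 is their relative. Nkx6-2, the highest, had 20.4, 7.37 and 16.0 FPKM in CON, 10.8, 8.37, 8.53, 8.71 and 5.81 in PQQ-L, and 18.1, 11.4, 5.75 and 8.45 in PQQ-H. Its 4 highest values lay in the 4 libraries in which the oligodendrocyte markers were highest. For Nkx2-9 the margin was slight and rested on few reads. The lowest of the 4, PQQ-H 2, had 0.566 FPKM (25 reads), and PQQ-L 1, the highest of the rest, had 0.550 (27 reads). The log2FC of Nkx6-2 was -0.69 (SE 0.38) in PQQ-L and -0.42 (SE 0.39) in PQQ-H, with limma adjusted p of 0.274 and 0.790. Nkx2-2 ran from 0.782 to 1.83 FPKM in CON, 0.600 to 1.01 in PQQ-L and 0.734 to 1.61 in PQQ-H, with groups that overlapped. Without CON 2, Nkx6-2 was called in PQQ-L at -1.11 (limma adjusted p = 0.0483), among 866 of all 13796 genes. Without the 4 libraries its value was 0.17.

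The POU factors of neurons were among the most abundant members. Pou3f1, known from CA1 pyramidal neurons and upper cortical layers, had 14.7, 20.1 and 18.1 FPKM in CON, 28.3, 23.6, 12.3, 29.7 and 23.6 in PQQ-L, and 30.1, 17.4, 32.5 and 33.9 in PQQ-H. Of the 9 treated libraries, 7 lay above all CON libraries, and PQQ-L 3 and PQQ-H 2 did not. Its log2FC was 0.36 (SE 0.29) in PQQ-L and 0.66 (SE 0.30) in PQQ-H, with limma adjusted p of 0.408 and 0.515. Pou3f3 and Pou6f1 had a log2FC of 0.18 and 0.21 in PQQ-L and of 0.19 and 0.11 in PQQ-H, and none of these passed. Pou3f2, a factor of upper-layer neurons, had 1.18 to 2.61 FPKM with groups that overlapped. Pou2f1, Pou2f2 and Pou2f3 were under the filter, with means of 0.0636 to 0.479 FPKM.

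Of the 12 members known from the diencephalon and midbrain, Lhx9 alone reached the filter, and 4 of the others had their highest values in 2 CON libraries. Gbx2, a factor of thalamic neurons, had 2.11, 0.983 and 0.0421 FPKM in CON, with 159, 62 and 3 reads, and 0 to 0.184 FPKM in the 9 treated libraries. Pou4f1, a factor of the medial habenula, had 0.463, 0.177 and 0.00654 FPKM in CON and at most 0.0135 elsewhere, which is 2 reads. The 4 habenula markers followed it in part. They summed to 13.5 FPKM in CON 2, 12.0 in PQQ-L 3, where Pou4f1 was at 0, and 4.69 in CON 1. Of that list, Chrna3 was highest in CON 1 (0.828 FPKM) and CON 2 (0.535). Irx1 and Irx2, iroquois factors of the thalamus and midbrain, had 1.01 and 0.306 FPKM in CON 1 and 0.592 and 0.0961 in CON 2. Irx1 was above 0 in all 12 libraries, with up to 0.272 FPKM outside those 2. For these 4 genes, CON 1 and CON 2 were the highest of the 12 libraries, and these 2 libraries were also the highest in the thalamic markers. The pattern held for 2.17% of all tested genes and for no tested member. That share covers genes with a mean of at least 0.5 FPKM. No share was taken among genes under the filter, where these 4 lie. Irx3 had 0.882, 0.485 and 0.329 FPKM in CON, but PQQ-L 2 also reached 0.632. With CON 3 at the level of the treated libraries for Gbx2, Irx2 and Pou4f1, their group means describe 2 libraries rather than the CON group.

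**Figure D5:**
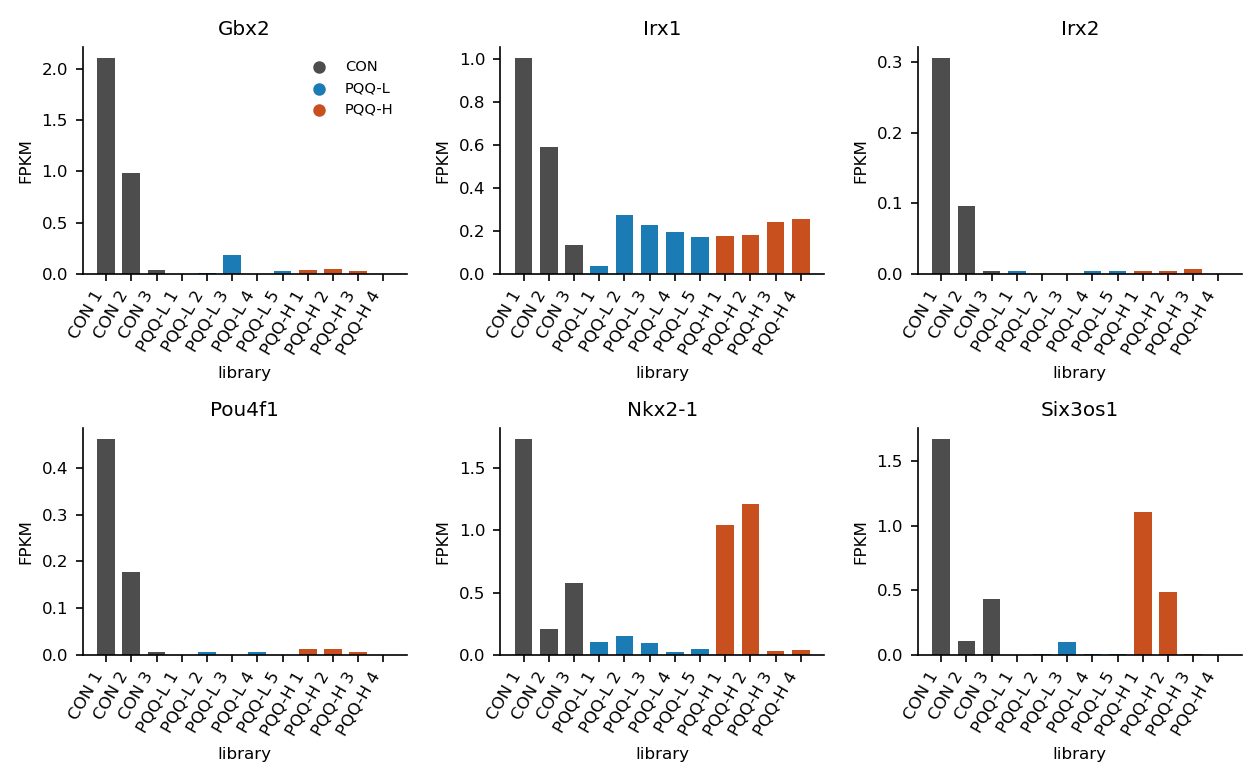
FPKM per library of 6 members under the filter, with colours for CON, PQQ-L and PQQ-H. Gbx2, Irx1, Irx2 and Pou4f1 are highest in CON 1 and CON 2, and Nkx2-1 and Six3os1 in CON 1, CON 3, PQQ-H 1 and PQQ-H 2.

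The remaining members were at low levels. The sine oculis-type factors of mesenchyme and other cells included Six2, Six4 and Six5, with means of 0.0597 to 0.467 FPKM. None of the 12 members that act mainly outside the forebrain reached the filter. Members named for their genomic position followed their neighbours in part. Six3os1, which runs opposite to Six3 on chromosome 17 and shares 106 exon bases with it, had 1.68, 0.104 and 0.436 FPKM in CON, 0 to 0.102 in PQQ-L, and 1.10, 0.485, 0.00398 and 0 in PQQ-H. Its 4 highest libraries were those of Six3. Dlx6os2 shares 104 exon bases with Dlx6 on the other strand and had the same 4 highest libraries as Dlx6. For these pairs, and for Otx2 and Otx2os1, reads of the 2 strands cannot be told apart, since strand-specific counting is not stated. Dlx6os1, a noncoding RNA on the strand opposite to Dlx6, ran from 1.43 to 5.39 FPKM, was highest in PQQ-H 4 and did not follow the striatal markers. Its log2FC was 0.06 in PQQ-L and 0.62 (SE 0.39, limma adjusted p = 0.686) in PQQ-H.

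Between the doses, no member was called and no gene of the table was either (0% of 13796 in limma). At an unadjusted p below 0.05 there were 2 members, Otx2 among them, both lower in PQQ-H, among 8.15% of all genes. A log2FC below 0 was found for 11 of the 29 members (54.3% of all genes). Otx2 was the member whose libraries did not overlap between the doses, among 4.76% of all genes. Six3 had the largest fitted difference, 2.53 (SE 1.58, limma adjusted p = 0.587), and its PQQ-H values came from PQQ-H 1 and PQQ-H 2, the libraries rich in striatal markers.

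Other homeobox families were read from a list of 80 genes, of which 77 were in the table and 26 were tested. None was called in PQQ-L and 1 was called lower in PQQ-H. This was Msx1, a muscle-segment homeobox factor of the dorsal midline, with 4.64, 4.77 and 7.81 FPKM in CON, 1.28, 1.45, 4.54, 2.36 and 2.12 in PQQ-L, and 1.31, 1.04, 1.87 and 1.09 in PQQ-H. All PQQ-H libraries lay below all CON libraries, and the log2FC was -2.03 (SE 0.37, limma adjusted p = 0.0268). Over all genes, 0.819% were called in this comparison and 7.08% did not overlap. The choroid plexus marker sum also separated CON from PQQ-H, so its content and treatment cannot be told apart for Msx1. With that marker level as a covariate, 0 of 13796 genes were called. The Hox cluster genes, which pattern the hindbrain and spinal cord, were near 0, and none of the 23 in the table reached the filter, with a highest mean of 0.0488 FPKM.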

How the data were processed

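Hippocampal RNA-seq of 12 mice was used. Per the methods, RNA was extracted with TRIzol, sequenced on an Illumina NovaSeq instrument, trimmed with fastp, aligned with HISAT2 and counted with HTSeq-count. The authors deposited FPKM, without the counts. The submitters' notes name mm39 as the build, and the annotation version and strandedness are not given in the sources used here. Whole reads were recovered from the FPKM steps for 25563 of 25563 genes above 0 in at least 2 libraries (100%, tolerance 0.02 reads), and describe counting depth only. No 2 libraries of a group were duplicates (over 19 pairs, chi-square divided by its degrees of freedom was at least 17.4).

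Log2(FPKM + 0.1) was taken for the 13796 genes that averaged at least 0.5 FPKM and was fitted over all 12 libraries with limma 3.58.1 (trend) in R 4.3.3, and p-values were adjusted over all these genes by the Benjamini-Hochberg method. The script was tested on simulated data. Other steps used Python 3.11.15. Genes named by rule were called members, the 3 highest of each role group, the 12 most variable tested members and the 6 with the highest single value under the filter. Other members named were chosen after their values were seen, and a few members are not reported here. The members, lists and tests were chosen with earlier results of these data known. Alternatives were other pseudocounts, filters, scalings and fits, a replicate block, the library letter and each library left out. A further 4 (voom on recovered reads, marker levels of striatum or choroid plexus as covariates, and 4 libraries left out) were chosen after seeing the data. Exon positions were read from GENCODE M21 and starts from RefSeq, both GRCm38.p6.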

Additional observations from a re-analysis of the deposited data

Results flagged for a closer look

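Of 60 groups of 4 or 5 libraries tested for a far sample among the named members, 4 held a library beyond the 95% critical value of Dixon's ratio, where chance gives about 1 in 20. All 4 were PQQ-L 3. In that library Pou3f1 stood at 12.27 FPKM (23.6 to 29.7 in the other PQQ-L libraries), Six3 at 1.018 (0 to 0.00774), its antisense neighbour Six3os1 at 0.1019 (0 to 0.00411) and Gbx2 at 0.1839 (0 to 0.0276). PQQ-L 3 also had the highest striatal marker sum of its group (161, the others 45.5 to 131). The part of tissue content in these values was not tested.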

How the results depend on the processing

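The numbers of called members were 0 in PQQ-L and 1 in PQQ-H under most alternatives. In PQQ-L vs. CON, 1 member (Otx2) was called, with 1 at an adjusted p below 0.05, with a pseudocount of 1, quantile normalization, no trend or voom on recovered reads. With each library left out in turn, 0 to 5 members were called in PQQ-L and 0 to 7 had an adjusted p below 0.05. The 5 came without CON 2 (Dlx5, Dlx6, Lhx9, Nkx6-2 and Otx2, with 866 genes called in all), and without PQQ-L 3 Otx2 was called at -2.64. In PQQ-H vs. CON, 0 members were called and 0 had an adjusted p below 0.05 at a mean FPKM of at least 1 (Otx2 is then not tested), without the 4 libraries highest in striatal markers, and with the choroid plexus marker level as a covariate. That covariate also moved the median log2FC of the members to 0.50 in PQQ-L and 0.84 in PQQ-H and the log2FC of Otx2 in PQQ-H to 0.60. With it, 0 of 13796 genes were called in each comparison. The choroid plexus sum separated CON from both treated groups without overlap, so this covariate and treatment cannot be told apart. With each library left out, the log2FC of Otx2 in PQQ-H lay between -4.01 and -3.50 and stayed called. Between the doses no alternative called a member.

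Replicate numbers did not pair the libraries, since the deviations of 10 same-numbered pairs had correlations of -0.62 to 0.72. With the replicate number as a block, 0 members were called in PQQ-L, 1 in PQQ-H and 0 between the doses, and the calls over all genes went from 65 to 23 and from 113 to 48. The block gave median log2FC of the members of -0.10, -0.03 and 0.14. Among the alternatives, 34 of 643 fitted values of named members changed sign in PQQ-L, 57 in PQQ-H and 38 between the doses, and 1 of these values had been called. With 3 CON libraries that differ in tissue content, small differences of striatal, thalamic and pallial members were not detectable. Many members under 0.5 FPKM rest on few reads, but the filter does not sort by reads. Pou2f1, under it, had 470 to 753 reads per library, and Nkx2-9, above it, had 4 to 66.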

Other observations

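PQQ-L 3 was also the library with the highest value of several members that were low in most other libraries. Lhx1, a LIM factor of Cajal-Retzius cells and hypothalamus, had 43 reads (0.289 FPKM) there and 28 (0.198 FPKM) in PQQ-L 5, and at most 8 in the other libraries. Pou4f3, a factor of sensory neurons, was listed at 0.171 FPKM in PQQ-L 3 and at 0 in the other 11 libraries. Irx5 reached 0.430 FPKM there, with 0.0118 to 0.224 elsewhere. Apart from the Lhx1 reads in PQQ-L 5, these high values come from 1 library and have no replicate check.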
